A study of Drosophila melanogaster with 7 samples.

Results

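The comparison set the 3 sequencing runs that held flies collected at Zeitgeber time (ZT) 8, in the light phase, against the 4 runs that held none, in glia and in neurons of the adult *Drosophila* brain. A run was placed by the collection times that the study's metadata table gives for its flies: runs 1, 6 and 7 held ZT8 flies and runs 2, 3, 4 and 5 did not. Of 164038 barcodes in the 7 runs, 135045 had at least 3000 unique molecular identifiers (UMIs) and at most 30% of them from mitochondrial genes. Glia were the barcodes with at least 1 UMI of *repo*, the pan-glial homeobox gene, and at most 3 UMIs of the pan-neuronal genes *elav* and *nSyb* together. Neurons had at least 3 UMIs of *elav* and *nSyb* and none of *repo*. This gave 267 glia in the ZT8 runs and 1936 in the other runs, and 30080 neurons in the ZT8 runs and 92250 in the other runs. Another 10512 barcodes belonged to neither class, 7641 of them because they held *repo* with more than 3 UMIs of *elav* and *nSyb*.

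Each run pooled dissected central brains, without optic lobes, of male flies from several wild-type lines of the *Drosophila* Genetic Reference Panel (DGRP), dissociated together for droplet-based single-cell RNA sequencing. Run 1 held 3 lines collected at ZT8 and 2 at ZT20, and all lines of runs 6 and 7 were collected at ZT8. Runs 2 and 3 held ZT2 and ZT20 flies, run 4 ZT2 and ZT14 flies, and run 5 ZT20 flies. The ZT8 flies were awake from ZT0 to ZT8 (W), sleep deprived from ZT0 to ZT8 or from ZT12 to ZT8 (SD), or asleep on gaboxadol from ZT12 to ZT8 (GBX-S), gaboxadol being a drug that induces sleep. The 2 ZT20 lines of run 1 were asleep (S) or sleep deprived from ZT12 to ZT20. The other runs held sleeping, waking and sleep-deprived flies as well, and in addition recovery sleep after deprivation (RS) and yoked controls (YC-S). Gaboxadol sleep occurred only in the ZT8 runs, and RS and YC-S only in the other runs. The ZT8 runs had flies of 4 to 9 days and the other runs flies of 6 to 8 days. DGRP line 359 occurred only in a ZT8 run, and line 892 only in the other runs.

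Collection time was mixed with behavioral state. Wake and sleep-deprived flies made up 80.0%, 66.7% and 66.7% of the line entries of runs 1, 6 and 7, against 44.4%, 22.2%, 42.9% and 50.0% of those of runs 2, 3, 4 and 5. The ZT8 runs were thus all above the other runs (71.1% ± 7.70, n = 3, against 39.9% ± 12.2, n = 4, SD; exact two-sided permutation test over 35 assignments, p = 0.0571, the smallest this design can give). Among the ZT8 entries themselves, 11 of 15 were wake entries. Differences below therefore belong to collection time, state and run together, and these cannot be told apart. A run mixed many flies, so p values measure the spread between runs and not between flies.

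The runs also differed in depth and in how they were filtered before deposit. Runs held between 49949595 (run 7) and 311443505 UMIs (run 2), and the summed glia between 232714 and 3968327 UMIs. All 3 ZT8 runs, and run 5, reached down to barcodes of 500 UMIs. Runs 2, 3 and 4 stopped at 2658, 2676 and 2914 UMIs per barcode, which left run 5 as the single run without ZT8 flies that kept shallow barcodes. Above the common floor of 3000 UMIs, the median depth of a glial barcode was 4546 ± 362 UMIs in the ZT8 runs and 4463 ± 415 in the other runs (SD, exact permutation p = 0.800), and that of a neuron 5761 ± 551 and 6640 ± 612 UMIs (p = 0.114). Between any pair of runs 16 to 249 kept barcodes were shared, at most 0.992% of the smaller run. The feature lists of runs 5, 6 and 7, unlike those of runs 1 to 4, carried 4 antibody features without a UMI, which marks 2 library sets, each with ZT8 and other runs. The classes carried their own markers, but glia were least clean in runs 2 and 4. The 11 glial markers outside the class rule included *Gs2*, *Eaat1*, *alrm*, *wrapper*, *Tret1-1* and *moody*. In glia of runs 1, 6 and 7 they summed to 13813, 13859 and 10146 CPM (counts per 1000000 UMIs of the class), against 266, 169 and 220 CPM in their neurons. In runs 2, 3, 4 and 5 the sums were 9248, 10168, 7829 and 13756 CPM in glia, against 643, 460, 777 and 209 CPM in neurons. Glia of runs 2 and 4 also held 6019 and 7807 CPM of 12 neuron markers, in run 4 nearly as much as of the glial markers.

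The molecular clock of the fly is a transcriptional feedback loop. CLOCK (CLK) and CYCLE (CYC) activate *per*, *tim*, *vri*, *Pdp1* and *cwo*; PERIOD and TIMELESS return to the nucleus and repress CLK and CYC, VRI represses and PDP1 activates *Clk*, and CWO is a further repressor of the loop's targets. CRYPTOCHROME, the product of *cry*, resets the loop by light. The loop runs in clock neurons, a small part of all brain neurons, and in many glia, where it takes part in daily behavior.

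In glia, 1 of 5412 genes tested differed between the ZT8 runs and the other runs at an adjusted p under 0.05, 0.0185% of the genes. It was *CG31324*, higher in the ZT8 runs. The gene lies on chromosome arm 3R at 26106868 to 26130674 (plus strand, BDGP6, Ensembl annotation) and carries the name *Cipc* in RefSeq. In mammals CIPC binds CLOCK and represses it. *CG31324* had 229, 331 and 238 normalized CPM in glia of runs 1, 6 and 7, against 42.0, 53.6, 58.8 and 39.9 in runs 2, 3, 4 and 5. The lowest ZT8 run was well above the highest other run, and the levels averaged 266 ± 56.4 CPM in ZT8 runs and 48.6 ± 9.06 CPM in other runs (SD, n = 3 and 4). The log2 difference was 2.44 ± 0.22 (SE, edgeR quasi-likelihood test, Benjamini-Hochberg adjusted p = 0.00623).

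These levels rested on 226, 131 and 55 UMIs in runs 1, 6 and 7, against 118, 199, 153 and 27 UMIs in runs 2 to 5. At least 1 UMI of *CG31324* was found in 41.6%, 55.9% and 57.9% of glia in runs 1, 6 and 7, against 13.1%, 16.4%, 19.3% and 15.9% in runs 2, 3, 4 and 5, so the share was higher in every ZT8 run. Free RNA can add to such shares, and its part was not tested: neurons, which also express the gene, had a UMI of it in 40.7%, 40.6% and 37.4% of barcodes in runs 1, 6 and 7, against 37.9%, 44.6%, 34.7% and 44.5% in runs 2, 3, 4 and 5. In neurons the gene did not pass the test. It had 88.1, 99.1 and 92.5 CPM in runs 1, 6 and 7, against 83.2, 98.2, 81.4 and 106 CPM in the other runs, and the groups overlapped (log2 difference 0.02 ± 0.12, edgeR adjusted p = 0.954). The difference in glia minus that in neurons was 2.38 ± 0.25 on the log2 scale (edgeR, adjusted p = 0.0544), which missed the threshold.

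As the groups did not overlap, a positive difference of *CG31324* in glia was fixed in advance in fits that only left out runs. The direction held under all 23 alternatives, with log2 differences between 2.17 and 2.88, and the gene was called in 17 of them. It was not called with the wake share of each run as a covariate (log2 difference 2.88 ± 0.46, edgeR adjusted p = 0.99986) or without run 2 (2.33, adjusted p = 0.0672) or run 3 (2.47, adjusted p = 0.0536), nor in glia without a UMI of *elav* or *nSyb* (2.51, adjusted p = 0.0520) or with at least 2 *repo* UMIs (2.30, adjusted p = 0.0597). The number of genes called in glia was 0 without run 2 or run 3, 1 without run 1, 4, 6 or 7, and 769 without run 5, the run of the other group with shallow barcodes. Run 1 against runs 2 to 4 gave 2.17 ± 0.23 (adjusted p = 0.109), and runs 6 and 7 against run 5 gave 2.82 ± 0.61 (adjusted p = 0.00212). In both comparisons 1 group is a single run, which is assumed to vary like the runs of the other group, so these p values, and all those given below for the same comparisons, have no replicate check in that group. In glia with a UMI of *alrm*, an astrocyte gene, the difference was 2.48 (adjusted p = 0.0149). The locus also holds *CG14556* on the same strand, which had at most 1 UMI in glia of any run.

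**Figure D1:**
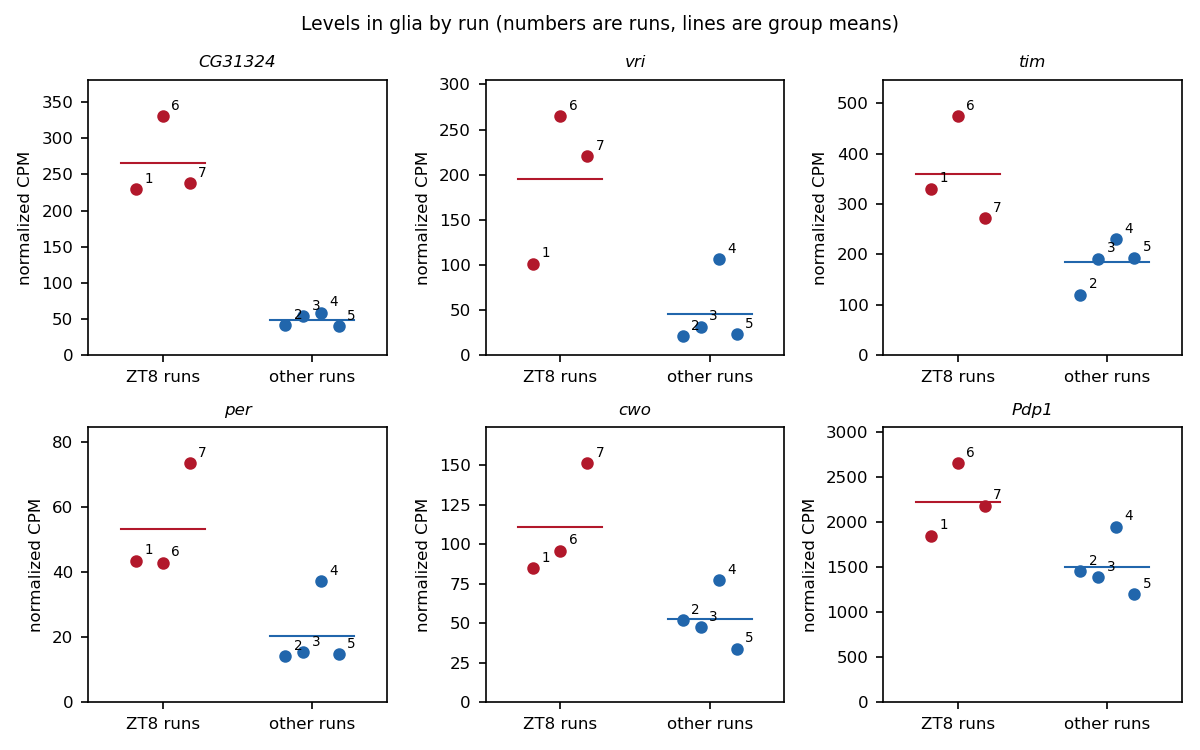
Levels of *CG31324*, *vri*, *tim*, *per*, *cwo* and *Pdp1* in glia, in normalized CPM per run (points; ZT8 runs 1, 6 and 7 on the left, other runs 2, 3, 4 and 5 on the right of each panel; lines, group means). *CG31324*, *tim*, *per* and *cwo* do not overlap between the groups, whereas *vri* and *Pdp1* do, through run 4.

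Of the 8 clock genes, 7 had positive differences in glia and 3 (*per*, *tim* and *cwo*) had all ZT8 runs above all other runs, against 6.08% of all genes tested, but none passed the adjusted test. The unadjusted p was under 0.05 for 5 of the 8, compared with 18.4% of all genes. Their median log2 difference was 0.77, beside 0.01 over all genes, and lay between 0.54 and 1.06 over the alternatives. *per*, *tim*, *vri*, *Pdp1* and *cwo* were positive in all 23 alternatives. For *per*, *tim* and *cwo*, the lack of overlap fixed that sign in the fits that only left out runs. *tim* was called by DESeq2 (adjusted p = 0.040) and by edgeR without run 5. *vri* was called by DESeq2 (adjusted p = 0.0292) and, by edgeR, in runs 6 and 7 against run 5.

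The genes of the feedback arm include *tim* (2L, 3493986 to 3508119), whose protein pairs with PERIOD and is degraded by light. It had 331, 475 and 272 CPM in glia of runs 1, 6 and 7, against 120, 192, 230 and 194 in runs 2, 3, 4 and 5. All ZT8 runs were higher than all other runs (log2 difference 0.97 ± 0.27, edgeR adjusted p = 0.167). A *tim* UMI was found in 67.1%, 70.6% and 65.8% of glia in runs 1, 6 and 7, against 30.4%, 41.0%, 42.4% and 58.9% in runs 2 to 5. *per*, its partner (X, 2685580 to 2692780), had 43.6, 42.9 and 73.5 CPM in the ZT8 runs, against 14.2, 15.3, 37.3 and 14.8. The groups did not overlap, although run 4, the run with ZT14 flies, came close to the ZT8 runs (1.28 ± 0.41, adjusted p = 0.175). These *per* levels rested on 43, 17 and 17 UMIs in runs 1, 6 and 7.

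*vri*, the repressor of *Clk* (2L, 5288944 to 5311223), had the largest clock difference but the groups overlapped. It had 101, 265 and 221 CPM in runs 1, 6 and 7, against 21.0, 31.5, 106 and 23.7 in runs 2, 3, 4 and 5, run 4 exceeding run 1 (log2 difference 2.03 ± 0.58, edgeR adjusted p = 0.167). Without run 4 it was 2.87. The share of glia with a *vri* UMI was 31.1%, 63.2% and 68.4% in runs 1, 6 and 7, against 7.27%, 10.4%, 26.9% and 10.3% in the other runs. *Pdp1*, the counterpart activator, had 1849, 2652 and 2180 CPM in ZT8 runs and 1457, 1389, 1950 and 1201 CPM in other runs (0.57 ± 0.21, adjusted p = 0.203). *cwo* had 85.2, 96.0 and 151 CPM in ZT8 runs and 52.0, 47.6, 77.6 and 34.0 CPM in other runs, without overlap (0.99 ± 0.31, adjusted p = 0.173).

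The activators themselves showed no such separation, but their counts were low. In runs 1, 6 and 7 *cyc* rested on 22, 12 and 4 UMIs and *Clk* on 26, 4 and 4, so a separation could have been missed. *cyc* had 22.3, 30.3 and 17.3 CPM in runs 1, 6 and 7, against 21.4, 19.4, 19.2 and 17.8 (log2 difference 0.27 ± 0.25). *Clk* had 26.4, 10.1 and 17.3 CPM in ZT8 runs and 30.3, 36.1, 9.60 and 26.6 CPM in other runs (-0.38 ± 0.51), its lowest values being those of runs 4 and 6. *cry* had 74.0, 75.8 and 90.8 CPM in ZT8 runs and 71.6, 57.1, 27.3 and 117 CPM in other runs (0.26 ± 0.42). In a class summed over its cells, fewer cells with a transcript and less RNA per cell cannot be told apart by the level alone. Run 4 was the highest of the other runs for 5 of the 8 genes.

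Genes around the loop were mostly negative in glia over all 7 runs. Of 10 clock kinases and degradation factors tested, 1 lay above and 2 below all other runs. Of 14 clock output genes, 0 lay above and 2 below, against 6.08% and 6.02% of all genes tested. Of the clock kinases and degradation factors, which set the stability of PERIOD and TIMELESS, 2 of 10 tested had a positive difference in glia (median log2 difference -0.31). Their summed level overlapped between the groups, at 1220 to 1355 CPM in ZT8 runs and 1187 to 1584 CPM in other runs. Of the clock output genes 4 of 14 were positive (median -0.37). Both directions turned between runs 6 and 7 and run 5, where 6 of 10 kinases and degradation factors (median 0.08) and 5 of 9 output genes (median 0.82) were positive. A fit with the level of neuron markers in glia of each run as a covariate brought both medians closer to the middle. There 4 of 10 kinases and degradation factors (median -0.16) and 5 of 14 output genes (median -0.08) were positive. The part of neuron RNA in these lists was not tested further.

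**Figure D2:**
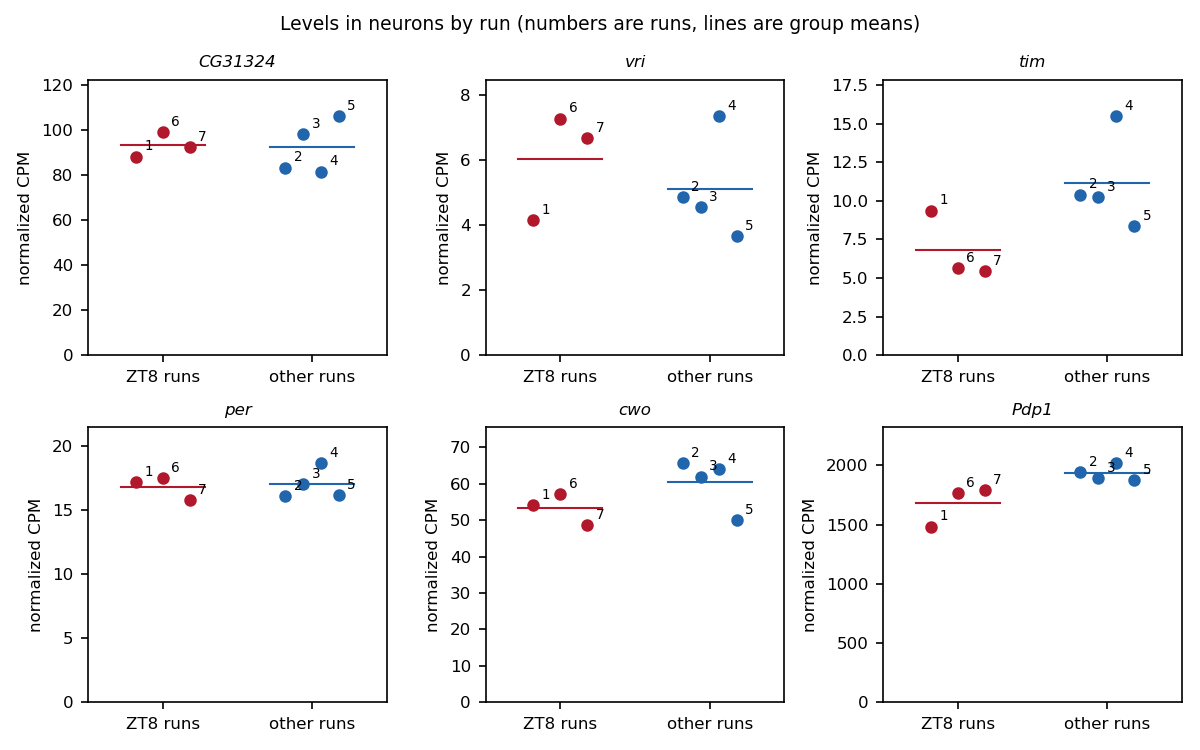
The same 6 genes in neurons, in normalized CPM per run (points; ZT8 runs on the left, other runs on the right of each panel; lines, group means). *CG31324*, *vri*, *tim*, *per* and *cwo* overlap between the groups, and *Pdp1* lies between 1482 and 1791 CPM in the ZT8 runs, below the other runs.

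In neurons 2 of the 8 clock genes had positive differences (median log2 difference -0.19), none was above all other runs, and 2 (*Pdp1* and *cry*) were below all of them, against 4.60% of all genes tested. *tim* had 9.37, 5.62 and 5.43 CPM in neurons of runs 1, 6 and 7, against 10.4, 10.2, 15.5 and 8.38 in the other runs (log2 difference -0.70 ± 0.25, edgeR adjusted p = 0.299). *per* had 17.2, 17.5 and 15.8 CPM in ZT8 runs and 16.1, 17.1, 18.7 and 16.2 CPM in other runs (-0.02). *vri* had 4.16, 7.28 and 6.68 CPM in ZT8 runs and 4.87, 4.55, 7.36 and 3.65 CPM in other runs (0.23), but was called in runs 6 and 7 against run 5 (0.93, edgeR adjusted p = 0.0133). *Pdp1* had 1482, 1762 and 1791 CPM in ZT8 runs and 1945, 1892, 2018 and 1876 CPM in other runs (-0.20), and *cry* had 5.12, 4.45 and 5.20 CPM in ZT8 runs and 6.83, 6.81, 5.30 and 6.35 CPM in other runs (-0.36). Of the 8 genes, 5 were positive between runs 6 and 7 and run 5 (median 0.05), as were 5 of 8 with the glial marker level of each run as a covariate (median 0.04). Since clock neurons are few, these levels average mostly over other neurons.

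The difference in glia minus that in neurons, tested with run as a block, was 2.00 ± 0.39 for *vri*, 1.66 ± 0.36 for *tim*, 1.35 ± 0.38 for *per*, 1.19 ± 0.29 for *cwo* and 0.76 ± 0.18 for *Pdp1* on the log2 scale. None passed (edgeR, adjusted p = 0.243 each). Over all 9135 genes tested this way 0 passed, and 1447 (15.8%) had an unadjusted p under 0.05. Without run 5, 1260 passed.

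**Figure D3:**
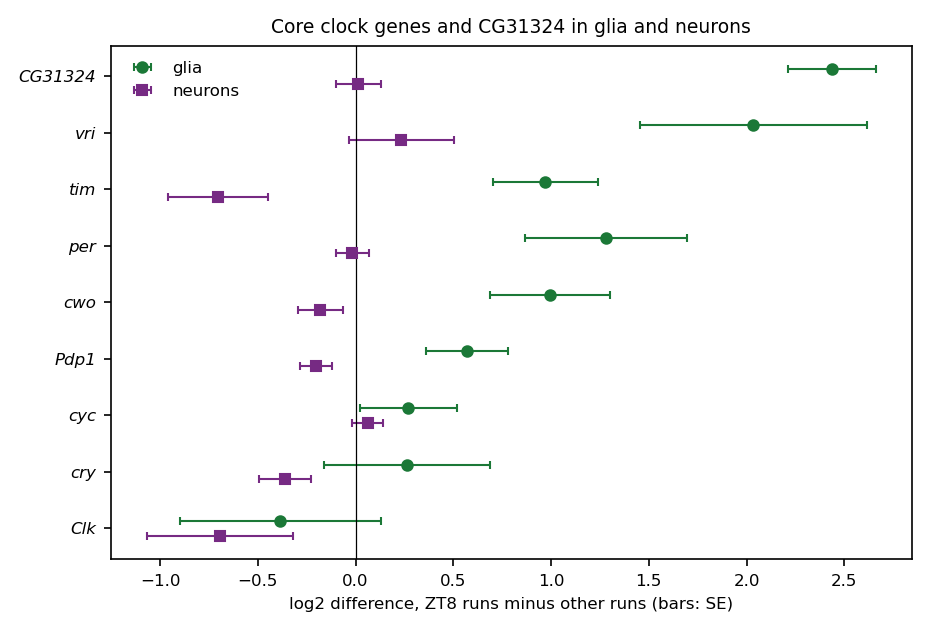
Log2 difference, ZT8 runs minus other runs, of *CG31324* and the 8 clock genes in glia and in neurons (points, with bars of 1 SE from edgeR). In glia *CG31324* lies at 2.44 and *vri* at 2.03, and in neurons all 9 values lie between -0.70 and 0.23.

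The library sets share no run, so the comparison could be made separately in each. For *tim* in glia, runs 6 and 7 against run 5 gave 0.94 and run 1 against runs 2 to 4 gave 0.89 on the log2 scale. For *per* the values were 1.89 and 1.01, for *cwo* 1.82 and 0.56, for *Pdp1* 1.00 and 0.23, and for *vri* 3.33 ± 0.65 (edgeR adjusted p = 0.000179) and 0.98 ± 0.83. For *CG31324*, *tim*, *per* and *cwo*, whose groups do not overlap, a positive sign in both sets is fixed by that and adds nothing to it. Over all 3977 genes tested in both sets, 1906 had the same sign (47.9%), and the correlation of the log2 differences across genes was r = -0.05, genes not being independent replicates. In the set of runs 5 to 7, 15 genes (0.377%) were called, in the set of runs 1 to 4 1 gene (0.0133%), and none in both. Fewer than 50% of the genes thus kept their direction between the sets.

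**Figure D4:**
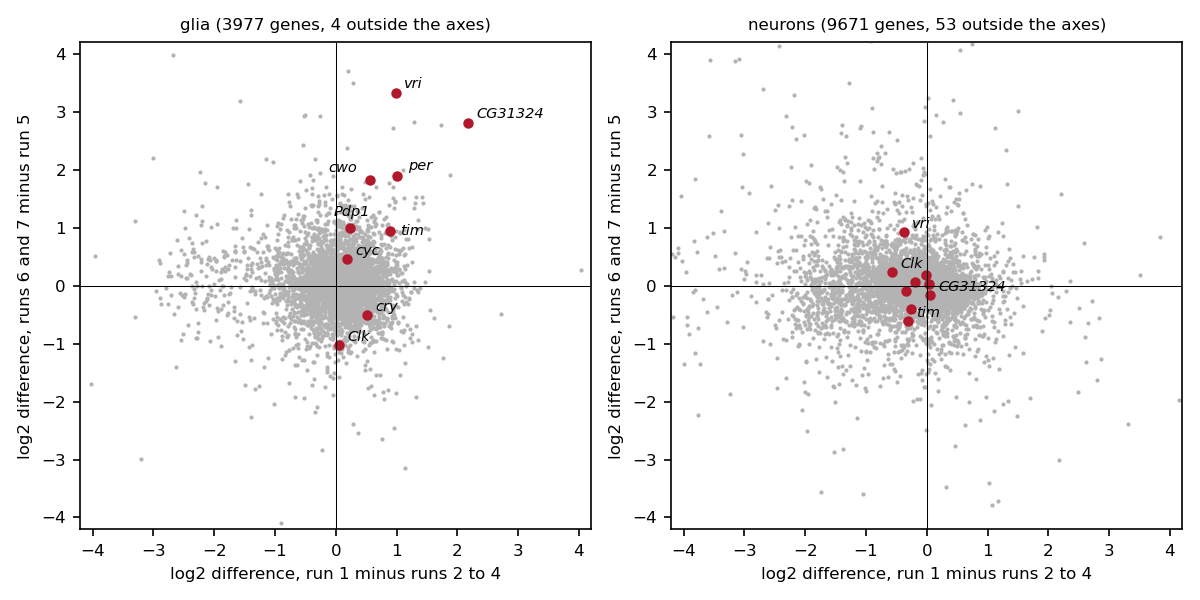
Log2 differences of each gene in glia (left) and neurons (right), run 1 minus runs 2 to 4 on the horizontal axis and runs 6 and 7 minus run 5 on the vertical axis (grey points; *CG31324* and the 8 clock genes in red). In glia *CG31324*, *vri*, *per*, *cwo*, *tim* and *Pdp1* are positive on both axes, and the grey points spread over all signs.

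Other genes of glia ranked next to *CG31324* by p value but were not called (edgeR adjusted p = 0.167 each). *Gclm*, the modifier subunit of the enzyme that starts glutathione synthesis, had 65.9, 116 and 86.5 CPM in runs 1, 6 and 7, against 36.0, 32.3, 35.7 and 35.5 (log2 difference 1.34 ± 0.23). *Cct2*, annotated as *Pcyt2*, an enzyme of phospholipid synthesis, had 628, 753 and 1012 CPM in ZT8 runs and 274, 283, 191 and 398 CPM in other runs (1.48). Both lay higher in every ZT8 run than in any other run. *CG42700* (1.59 ± 0.28), *CG11241* (1.85) and *CG7509* (1.27) were also above. *sif*, a Rac guanine exchange factor of neurons, had 98.4, 96.0 and 60.6 CPM in ZT8 runs and 657, 409, 698 and 151 CPM in other runs (-2.46). *mRpL34*, a mitochondrial ribosomal protein gene, had 13.2, 12.6 and 8.65 CPM in ZT8 runs and 31.7, 30.2, 39.9 and 38.5 CPM in other runs (-1.51). *CG3065* (-1.72) and *CG13384* (-1.26) were likewise below all other runs, as were 6.02% of all genes tested. Counts of these 3 genes in runs 1, 6 and 7 were low: 13, 5 and 2 UMIs for *mRpL34*, 4, 2 and 1 for *CG3065*, and 15, 5 and 4 for *CG13384*.

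RNA of the other class was lower on average in the ZT8 runs, but the groups overlapped in both classes. The 12 neuron markers, among them *Syt1*, *brp*, *VAChT*, *VGlut* and *Gad1*, summed to 3233, 2228 and 4929 CPM in glia of runs 1, 6 and 7, against 6019, 4300, 7807 and 3065 CPM in runs 2, 3, 4 and 5, and 0 of the 12 had a positive difference (median log2 difference -2.06). The 11 glial markers summed to 266, 169 and 220 CPM in neurons of the ZT8 runs, against 643, 460, 777 and 209 CPM in the other runs, again with 0 of 11 positive (median -1.52). Run 5 lay within the range of the ZT8 runs in both classes. Between runs 6 and 7 and run 5 the medians were -0.07 in glia and -0.21 in neurons, and the part of this RNA in the results was not tested, apart from a fit with the neuron marker level of each run as a covariate, in which *CG31324* remained called in glia.

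**Figure D5:**
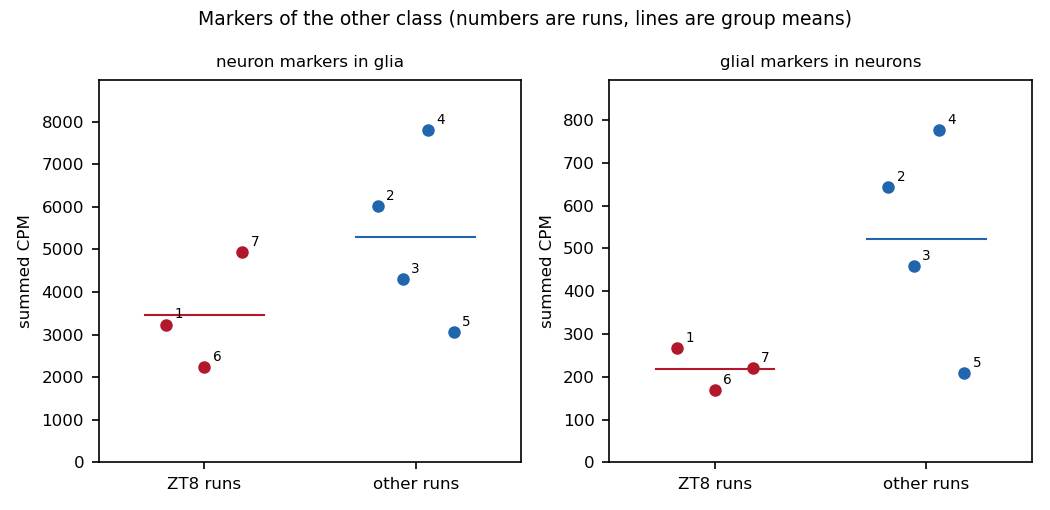
Summed CPM of 12 neuron markers in glia (left) and of 11 glial markers in neurons (right), one point per run, ZT8 runs to the left of the other runs, with lines at the group means. The highest values are those of runs 2 and 4 in both panels, and run 5 lies among the ZT8 runs.

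Lists of genes were read by their counts and medians. None of the 32 lists had a called member in glia or in neurons. In glia all 22 cytochrome P450 genes tested, of 82 in the list, had positive differences (median log2 difference 0.59), with 5 of the 22 above all other runs, against 6.08% of all genes. These enzymes oxidise hormones and toxins. *Cyp28d1* had 486, 1273 and 1155 CPM in runs 1, 6 and 7, against 362, 470, 517 and 404 (1.14 ± 0.31), and the groups overlapped. Between runs 6 and 7 and run 5, however, 12 of 19 were positive (median 0.13), and with the neuron marker level as a covariate the median was 0.16. Over all alternatives the median of the P450 genes lay between -0.29 and 0.73.

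Glutathione transferases, which couple glutathione to toxic compounds, had 15 of 17 positive differences in glia (median 0.52), with 3 of the 17 above all other runs. Of them, 10 of 16 were positive between runs 6 and 7 and run 5 (median 0.26). Between run 1 and runs 2 to 4, 17 of 22 were positive (median 0.81). With the neuron marker level as a covariate their median was 0.36. *GstD1* had 1883, 1786 and 1522 CPM in ZT8 runs and 860, 1124, 660 and 1045 CPM in other runs, without overlap (0.91 ± 0.21, edgeR adjusted p = 0.167). All 16 antioxidant genes tested were positive (median 0.49), 6 of them above all other runs, against 6.08% of all genes; *Fer2LCH*, a ferritin chain, was at 0.52 and *MtnA*, a metallothionein, at 0.03. Between runs 6 and 7 and run 5, 9 of 15 were positive (median 0.06), so the direction was clearer in the set of runs 1 to 4, with 15 of 16 (median 0.68).

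Summed levels of some lists of glial subtypes and neighbouring cells did not overlap. The astrocyte list summed to 11665, 10799 and 10146 CPM in glia of runs 1, 6 and 7, against 7893, 8972, 7463 and 8869 CPM in the other runs, although 2 of its 6 members were positive (median log2 difference -0.19), with *Obp44a* at 0.49 and *alrm* at -0.15. The hemocyte list, several of whose genes surface glia also make, summed to 5128, 4408 and 5277 CPM in ZT8 runs and 2569, 2619, 2413 and 4267 CPM in other runs. Of its 12 genes 4 passed the filter on low counts in glia, and the hemocyte genes *Hml*, *NimC1*, *He*, *srp* and *eater* did not. *Cg25C*, a collagen IV chain, had 1045, 1020 and 999 CPM in ZT8 runs and 520, 570, 548 and 818 CPM in other runs (0.74), and *BM-40-SPARC*, a basement membrane protein, was at 0.62. The share of glia with an *alrm* UMI was 43.4% ± 12.7 in ZT8 runs and 56.3% ± 9.47 in other runs (SD, n = 3 and 4, exact permutation p = 0.229).

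Neuropeptide genes went the other way in glia, with 0 of 18 positive (median -2.68). *Ms* had 17.2, 58.1 and 21.6 CPM in runs 1, 6 and 7, against 148, 285, 391 and 29.6, run 5 lying within the ZT8 runs. Of the sleep regulator list, 2 of 24 were positive (median -1.23), but 7 of 14 between runs 6 and 7 and run 5 (median -0.04), and with the neuron marker level as a covariate the median was -0.73. Between runs 6 and 7 and run 5, 4 of 5 neuropeptide genes were positive, beside the neuron marker levels given above.

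In neurons 0 of 10233 genes passed (0%) with edgeR; 1544 (15.1%) had an unadjusted p under 0.05, and DESeq2 called 322. Without run 5 edgeR called 1663, and without run 2 it called 1. The gene with the smallest p was *natalisin*, a neuropeptide gene expressed in a few neurons (3R, 14418593 to 14421865, with *cv-c* on the other strand). It had 0.402, 0.352 and 0.301 CPM in runs 1, 6 and 7, against 8.61, 45.8, 36.4 and 141 in the other runs (log2 difference -7.31 ± 1.05, edgeR adjusted p = 0.273), and it was called without run 2 (-7.68, adjusted p = 0.0329) and without run 5 (-6.37, adjusted p = 0.00604). Over the alternatives the edgeR adjusted p lay between 4.42e-23 (runs 5 to 7 alone) and 0.99997 (wake share covariate), and without barcodes over 20000 UMIs the log2 difference was -3.84. These levels came from very few cells: 0 of 30080 neurons in ZT8 runs, which allows a share of up to 0.00997%, and 12 of 92250 in other runs (0.0130%) had at least 10 *natalisin* UMIs, and the 12 held 88.5% of the gene's UMIs there. The 12 were spread as 4, 4, 3 and 1 over runs 2, 3, 4 and 5. Run 5 had 1 such cell among 8061 neurons, beside 0 among 14007, 10164 and 5909 neurons of runs 1, 6 and 7. The limit covers counting error only. Cells of a run are not replicates and no test was made on them, so no conclusion is drawn from the limit.

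Among the other leading genes of neurons, *CG15082* had 40.1, 40.6 and 32.6 CPM in ZT8 runs and 20.7, 17.3, 25.2 and 22.9 CPM in other runs (log2 difference 0.81 ± 0.14, edgeR adjusted p = 0.273). *dally*, a heparan sulfate proteoglycan that binds morphogens, had 98.9, 115 and 118 CPM in ZT8 runs and 183, 200, 213 and 140 CPM in other runs (-0.74 ± 0.15). *let-7-C*, the primary transcript of a microRNA cluster, had 7.68, 11.4 and 9.20 CPM in ZT8 runs and 15.0, 16.4, 16.7 and 13.4 CPM in other runs (-0.71). *CG2145* (-2.23), *CG10799* (-2.30), *Prx2540-1* (-3.05), *CG10126* (-1.27), *CG10399* (-1.69) and *CG10361* (-2.15) were lower as well, which made 9 of the 10 leading genes lower in the ZT8 runs. Of all genes with an unadjusted p under 0.05 (edgeR), 1032 were lower and 512 higher. Between runs 6 and 7 and run 5, *Prx2540-1* was at -0.82, *CG10361* at -0.88 and *dally* at -0.27, whereas *natalisin* was at -8.72.

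Several lists had negative medians in neurons, as the glial markers did. P450 genes had 5 of 43 positive (median log2 difference -1.34), and the glial markers 0 of 11. UDP-glycosyltransferases, which add sugars to small molecules, had 0 of 9 (median -1.79). With the glial marker level of each run as a covariate the medians were -0.16 for P450 genes and -0.36 for UDP-glycosyltransferases. Between runs 6 and 7 and run 5 these medians were -0.14 and -0.23. *Ugt35b* had 6.18, 5.19 and 5.60 CPM in ZT8 runs and 29.3, 19.8, 23.7 and 6.27 CPM in other runs (-1.81). *Gs2*, the glutamine synthetase of glia, had 62.5, 49.4 and 42.3 CPM in ZT8 runs and 256, 163, 346 and 53.0 CPM in other runs. Run 5 was close to the ZT8 runs in both. The neuron markers themselves summed to 17610, 18323 and 18141 CPM in ZT8 runs and 18081, 19180, 18967 and 18203 CPM in other runs, with overlap.

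Other lists were read in neurons in the same way. Heat shock genes were positive in 13 of 15 (median 0.14), with 3 above all other runs (4.06% of all genes). *Hsp83*, the Hsp90 chaperone, had 678, 587 and 643 CPM in ZT8 runs and 502, 531, 494 and 578 CPM in other runs (log2 difference 0.27). Of the sodium pump list, 1 of 12 was positive (median -0.34) and 5 lay below all other runs, against 4.60% of all genes. Of the 12, 4 were positive between runs 6 and 7 and run 5 (median -0.07). *nrv3*, a beta subunit of the pump in neurons, had 4197, 5206 and 5064 CPM in ZT8 runs and 5576, 5685, 6657 and 5370 CPM in other runs (-0.27), and *Atpalpha*, its catalytic subunit, was at -0.17. Ribosomal protein genes were positive in 21 of 86 (median -0.08) and nuclear genes of the respiratory chain in 8 of 8 (median 0.14), the respiratory chain turning to 1 of 8 between runs 6 and 7 and run 5 (median -0.10). Mitochondrially encoded genes were positive in 1 of 23 (median -0.80), beside a median mitochondrial share of 6.70% ± 2.04 of UMIs in neurons of ZT8 runs and 9.88% ± 3.05 in other runs (SD, n = 3 and 4, exact permutation p = 0.229). Their direction differed between the sets, with 15 of 20 positive between runs 6 and 7 and run 5 (median 0.17) and 0 of 27 between run 1 and runs 2 to 4 (median -3.13).

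The library sets were also compared in neurons, again with a single run on 1 side of each comparison. Between runs 6 and 7 and run 5, 97 of 9677 genes were called (1.00%), and between run 1 and runs 2 to 4, 1290 of 11702 (11.0%). Of these, 28 were called in both, 29.2% and 2.26% of each list, and 14 of the 28 had the same sign. Over 9671 genes tested in both, 3991 had the same sign (41.3%). Without run 5, 1663 genes were called in neurons (15.7%) and 769 in glia (11.8%), a set in which the ZT8 runs are also exactly those with shallow barcodes.

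Glia made up a smaller share of glia and neurons together in the ZT8 runs above the UMI floor. They were 1.14%, 0.665% and 0.639% of these barcodes in runs 1, 6 and 7, against 1.93%, 2.67%, 1.82% and 1.31% in runs 2, 3, 4 and 5. Kept barcodes of neither class were left out of the share. They numbered 126 to 470 in the ZT8 runs and 269 to 3560 in the other runs. The groups did not overlap (0.813% ± 0.280, n = 3, against 1.93% ± 0.559, n = 4, SD; difference -1.12 percentage points, exact permutation p = 0.0571, the smallest the design can give). Without the UMI floor the shares were 3.16%, 1.57% and 2.15% in ZT8 runs and 2.22%, 2.91%, 1.86% and 3.41% in other runs, with overlap (difference -0.306 percentage points, exact permutation p = 0.571). Runs 2 to 4 lack barcodes below their minima, so the 2 shares are not measured on the same barcodes.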

How the data were processed

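The authors deposited, per the labels and the study's methods, raw UMI counts per gene and barcode for 7 droplet libraries, made with Cell Ranger 3.1.0 on the BDGP6 genome (Scanpy 1.4.4 is also named), and a metadata table of line, collection time and state, from which the runs were grouped. Counts of kept barcodes were summed per run and class, genes passing filterByExpr were tested with edgeR 4.0.16 (TMM, quasi-likelihood, limma 3.58.1, R 4.3.3) with Benjamini-Hochberg adjustment at 0.05, and the difference between classes with run as a block. Levels are CPM scaled by TMM factors, and list sums plain CPM. DESeq2 1.42.0 was an alternative. Run values were compared with exact two-sided permutation tests (scipy 1.17.1). Intervals and limits on shares cover counting error only. No doublet caller was run; glia could hold up to 3 UMIs of *elav* and *nSyb*, barcodes of *repo* with more entered neither class, and glia without any were an alternative.

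The text names the 8 clock genes and the 10 smallest p per class where fewer than 5 genes were called. The rule for lists took their 2 most abundant members, but only some of these members, and only some lists, are described. For the clock lists in glia, *mts*, *nmo*, *Lk6* and *Amph* are among the members left out. *CG31324* in neurons, *natalisin* cell counts, *Gs2*, *Pdh* and the hemocyte genes were also looked up after values were seen. Members and lists were chosen with earlier results of these data known. The cytochrome P450 list was narrowed after its first pattern had caught a cyclophilin. Tests were checked on simulated data. Alternatives covered normalization, filters, UMI floor, mitochondrial limit, thinning to 3000 UMIs, library set, wake share, marker definitions and each run left out; the covariate for the other class's markers, and thinning for the difference between classes, were added after seeing the data.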

Additional observations from a re-analysis of the deposited data

Results flagged for a closer look

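The 4 runs without ZT8 flies were checked for a run far from the others in 87 sets of values, and 8 held one; chance alone would give about 1 in 20. The 3 ZT8 runs were too few to be checked. In glia, run 4 stood apart for *per* (37.3 CPM, the rest between 14.2 and 15.3 CPM) and for *vri* (106 CPM, the rest between 21.0 and 31.5 CPM). Run 3 stood apart for *Gclm* in glia (32.3 CPM, the rest between 35.5 and 36.0 CPM). Run 5 stood apart in glia for *GstE12* (870 CPM, the rest between 530 and 565 CPM) and for *Cg25C* (818 CPM, the rest between 520 and 570 CPM). In neurons, run 4 stood apart for *CG2145* (1.77 CPM, the rest between 0.764 and 0.928 CPM), and run 5 for *Ugt86Dd* (1.16 CPM, the rest between 3.80 and 4.32 CPM) and *Fer2LCH* (1210 CPM, the rest between 870 and 915 CPM).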

How the results depend on the processing

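The direction of *CG31324* in glia and of the glial share held under every alternative run. Leaving out runs could not turn either direction, because the groups did not overlap. Without the UMI floor the glial shares did overlap. Counts of called genes moved. In glia, where 1 gene was called, DESeq2 called 191 (42 higher and 149 lower), runs 5 to 7 alone 15, and the wake share covariate, glia without *elav* or *nSyb* and glia with at least 2 *repo* UMIs 0 each. In neurons, where 0 were called, DESeq2 called 322, thinning to 3000 UMIs 1 (*natalisin*), a library set term 5, runs 5 to 7 alone 97, runs 1 to 4 alone 1290 and the glial marker covariate 1 (*natalisin*). The difference between classes gave 1 without a filter on low counts and 2 with the library set term, against 0. Leaving out 1 run at a time gave 0 to 769 genes in glia, 0 to 1663 in neurons and 0 to 1260 for the difference between classes, the upper values all without run 5, and a glial share difference of -1.33 to -0.873 percentage points. *Arr2*, a photoreceptor arrestin, was at 2.52 in neurons but reversed to -1.96 (SE 0.25) in runs 5 to 7 alone. It was also negative, at -1.79, without run 1, the run with 257 CPM. The cause of the high value in run 1 was not tested. Of 1745 values of named genes under alternatives, 1479 stayed, 174 moved by more than the spread and 85 newly passed. Another 6 no longer passed (all *CG31324*), and 1 passed with the opposite sign. A change of sign without passing was counted as stayed or moved. *Pdf* in neurons, for example, kept its sign in 12 of 21 alternatives, and *MtnA* in glia in 13 of 23. No paired analysis was possible because the labels give every run the same replicate number. Levels from runs 6 and 7 rest on 68 and 38 glia, which limits low genes.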

Other observations

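*Arr2*, an arrestin of photoreceptor cells, had 257, 6.27 and 2.47 CPM in neurons of runs 1, 6 and 7, against 14.9, 27.6, 2.04 and 17.4 in runs 2, 3, 4 and 5, run 1 standing far above the rest. *Pdf*, the peptide of the ventral lateral clock neurons, had 452, 22.9 and 1406 CPM in runs 1, 6 and 7, against 56.5, 400, 249 and 1632 in the other runs. Its UMIs came from 7, 4 and 2 neurons with at least 10 *Pdf* UMIs in the ZT8 runs and 9, 9, 7 and 2 in the other runs, which held 98.5% and 94.2% of them.

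*Pdh*, a retinoid dehydrogenase gene, was the single gene called in glia of run 1 against runs 2 to 4 (log2 difference 5.25, edgeR adjusted p = 0.0175, with a single ZT8 run and so no replicate check on that side), and was singled out after its values were seen.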
